A study of Mus musculus with 58 samples.

Results

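DNA methylation was measured at CpGs named for Kcnip1, Accn1 (now Asic2) and Clic5, 3 genes of potassium, acid-sensing and chloride channel biology, which were picked out by gene name. They account for 3 of the 382 CpGs on the custom GoldenGate bead array of the study, which compares the signals of methylated and unmethylated DNA at a CpG once bisulphite has converted the unmethylated cytosines, and for 3 of its 381 gene names. Levels are beta values, which run from 0 (no methylated signal) to 1 (methylated signal only). The mice labelled 3TG gave frontal cortex (FC_3TG, n = 3) and CA1 (CA1_3TG, n = 1), both on a C57BL/6-129 background. Wild-type frontal cortex (FC_WT, n = 2) came from C57BL/6 mice, so genotype and background cannot be told apart. Healthy C57BL/6 mice gave 10 further regions: basolateral amygdala (BLA, n = 5), CA3 (n = 4), dentate gyrus (DG, n = 5), caudate-putamen (CPU, n = 6), thalamus (TH, n = 5), globus pallidus (GP, n = 5), substantia nigra (SN, n = 6), hypothalamus (HYP, n = 5), the granular cell layer (GCL, n = 6) and Purkinje cells (PC, n = 4). The labels give no age, do not describe the 3TG alleles and do not tie samples to animals, so the spread behind each p-value is that between these samples and may be technical. The DNA came from tissue or cell layers with many cells, and a change in the mix of cell types and a change of methylation within a cell type cannot be told apart. Expression was not measured, so the labelled regions could not be checked against expressed markers.

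Ion channels and their partners set how neurons and glia respond to voltage, ligands and acid. Kcnip1 encodes a calcium-binding protein of the KChIP family, which attaches to Kv4 potassium channels, brings them to the membrane and shapes the fast A-type current that delays firing. Accn1 encodes a subunit of the proton-gated sodium channels of the degenerin family, which open when the fluid around a neuron turns acid and act at synapses and sensory endings. Clic5 encodes a member of the chloride intracellular channel family, proteins that exist in soluble and membrane forms, and is known in mouse from the actin-rich hair bundles of the inner ear. Methylation of CpGs in and around promoters is commonly low where a promoter is open, and differs between cell types.

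Where each CpG lies in its gene was not known here. RefSeq lists 3 start windows for Kcnip1, 2 for Asic2 and 1 for Clic5 (GRCm38.p6, 250 bases before to 50 after each start). The window with the most CpGs of each gene is shown, to give the sequence around an annotated start of each gene; whether it holds the measured CpG was not known. They are chr11:33843637-33843936 on the minus strand for Kcnip1, chr11:81152854-81153153 on the minus strand for Asic2 and chr17:44188322-44188621 on the plus strand for Clic5. Capitals mark CpG dinucleotides.
Kcnip1: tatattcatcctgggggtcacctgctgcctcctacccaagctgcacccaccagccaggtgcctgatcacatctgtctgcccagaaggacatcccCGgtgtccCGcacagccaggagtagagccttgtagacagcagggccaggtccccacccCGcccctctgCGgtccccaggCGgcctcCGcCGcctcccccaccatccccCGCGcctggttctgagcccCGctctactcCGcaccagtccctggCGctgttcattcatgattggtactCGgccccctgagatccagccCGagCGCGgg
Asic2: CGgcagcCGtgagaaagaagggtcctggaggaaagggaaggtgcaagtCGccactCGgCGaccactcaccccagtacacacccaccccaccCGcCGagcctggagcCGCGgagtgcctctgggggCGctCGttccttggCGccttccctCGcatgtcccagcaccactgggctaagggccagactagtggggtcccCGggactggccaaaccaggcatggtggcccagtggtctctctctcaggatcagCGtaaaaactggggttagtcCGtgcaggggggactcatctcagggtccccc
Clic5: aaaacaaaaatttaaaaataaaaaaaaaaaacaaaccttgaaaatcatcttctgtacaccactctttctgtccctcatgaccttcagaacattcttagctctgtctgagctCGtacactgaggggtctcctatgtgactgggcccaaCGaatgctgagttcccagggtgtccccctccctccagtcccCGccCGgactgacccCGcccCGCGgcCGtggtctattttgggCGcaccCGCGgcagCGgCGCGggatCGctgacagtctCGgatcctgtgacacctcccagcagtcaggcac
Each of these windows held 16 CpGs, and 33.0% of all 32851 windows in the table held as many or more. The other windows were poorer in CpGs, with 7 and 4 for Kcnip1 and 9 for Asic2. The ratio of observed to expected CpGs was 0.515 for Kcnip1, 0.500 for Asic2 and 0.754 for Clic5.

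The 3 CpGs differed in level and in how that level was spread over the brain. Averaged over the 53 samples of the 11 C57BL/6 regions, the beta value was 0.153 at Kcnip1, 0.525 at Accn1 and 0.306 at Clic5. All 3 differed between regions (limma F-test on log2(beta / (1 - beta)), Benjamini-Hochberg adjusted over all CpGs), with an adjusted p of 1.84e-16 at Kcnip1, 0.000856 at Accn1 and 0.00506 at Clic5. That test called 44.5% of the array. Region means spanned 0.223 at Kcnip1, 0.222 at Accn1 and 0.148 at Clic5, against a median span of 0.0496 over all CpGs. Kcnip1 formed a gradient over all regions, whereas at Accn1 and Clic5 the differences lay with frontal cortex and, for Clic5, part of the dentate gyrus.

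**Figure D1:**
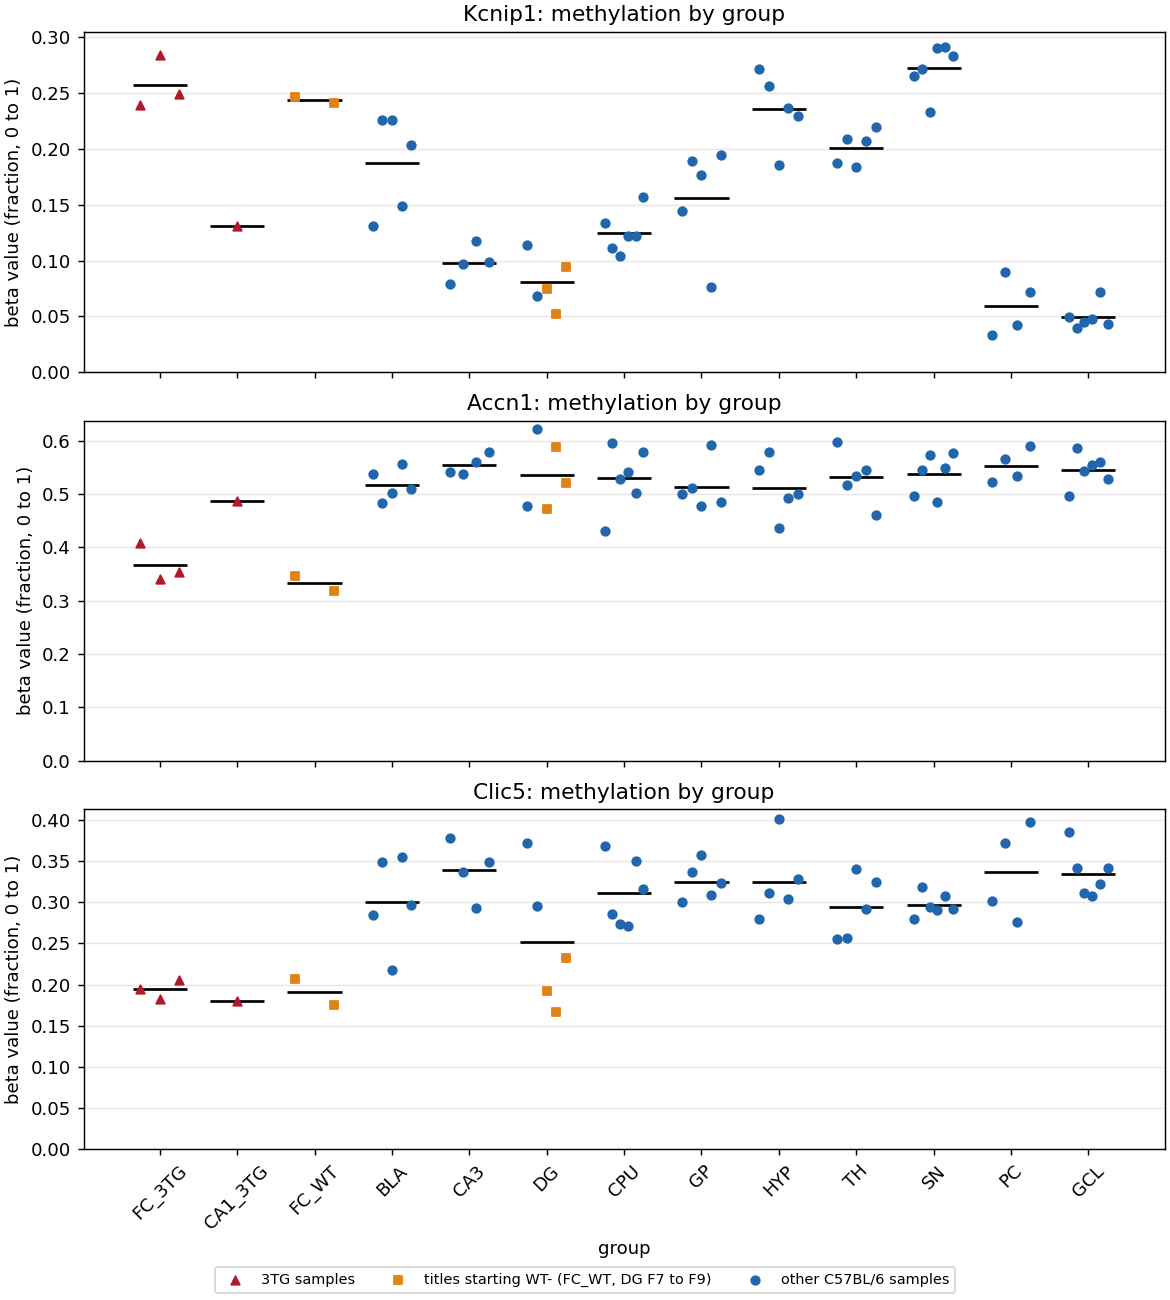
Beta value (fraction, y axis from 0) of each sample by group (x axis) at Kcnip1, Accn1 and Clic5; each point is a sample, each black bar a group mean, triangles are 3TG samples, and squares are FC_WT and DG F7 to F9. Kcnip1 climbs from 0.0494 in GCL to 0.273 in SN, frontal cortex of both genotypes is low at Accn1, and at Clic5 frontal cortex, CA1_3TG and DG F7 to F9 lie between 0.166 and 0.232.

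Mean methylation of Kcnip1 as deposited was highest in the substantia nigra and lowest in the layers of the cerebellum. FC_WT stood above SN under 2 other scalings: Kcnip1 FC_WT minus others was 1.46 and Kcnip1 SN minus others 1.27 on the log2 scale with quantile normalization, and 1.442 and 1.437 with arrays centred on their medians. The SN samples ran from 0.233 over a median of 0.277 to 0.292, and the FC_WT samples were at 0.246 and 0.241. HYP samples were at 0.272, 0.256, 0.185, 0.237 and 0.229, and TH samples at 0.187, 0.209, 0.184, 0.207 and 0.219. SN held the highest samples, and SN F4 and HYP F4 were the lowest of their regions. BLA was wider, at 0.130, 0.226, 0.226, 0.149 and 0.204. GP stood in the middle, at 0.144, 0.189, 0.177, 0.0763 and 0.194, where M3 lay apart below the others. CPU ran from 0.104 over a median of 0.122 to 0.157. The hippocampal fields and the cerebellum were at the low end. CA3 samples were at 0.0788, 0.0966, 0.118 and 0.0990, and DG samples at 0.114, 0.0683, 0.0743, 0.0525 and 0.0943. PC samples were at 0.0337, 0.0900, 0.0426 and 0.0718, and GCL ran from 0.0394 over a median of 0.0464 to 0.0717. No sample of PC or GCL reached the lowest sample of SN, FC_WT, HYP, TH or BLA.

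Against the mean of the other 10 regions, 5 regions were higher at Kcnip1 and 3 were lower; over all CpGs and regions 15.9% of such tests were called. SN averaged 0.273 ± 0.0220 (SD, n = 6), against 0.144 in the other regions, a log2 difference of 1.38 ± 0.16 (SE; limma adjusted p = 2.43e-08), where 12.6% of CpGs were called higher. FC_WT (0.244 against 0.147), HYP (0.236 against 0.147) and TH (0.201 against 0.151) were higher by 1.14, 1.06 and 0.75 on the log2 scale, in comparisons that called 4.19%, 8.64% and 5.5% of CpGs higher. GCL averaged 0.0494 ± 0.0115 (SD, n = 6), against 0.166 elsewhere, a log2 difference of -1.78 ± 0.16 (SE; limma adjusted p = 6.74e-13), and PC averaged 0.0595 ± 0.0260 (SD, n = 4), against 0.165 (log2 difference -1.56). Lower calls made up 14.1% of CpGs in GCL and 11.8% in PC. The arrays of PC were shifted the other way as a whole, with a median log2 difference of 0.20 over all CpGs. DG was lower at 0.0806, against 0.163 (log2 difference -0.98, adjusted p = 4.08e-05; 16.2% of CpGs lower), but without F7, F8 and F9 the difference was -0.78 with an adjusted p of 0.154. BLA was higher at 0.187, against 0.152 (log2 difference 0.57, limma adjusted p = 0.0366), where 6.54% of CpGs were called higher. That call held in 13 of 15 alternatives, and the highest adjusted p among them was 0.107, on untransformed beta, where it was lost. It was also lost without BLA F4, M1 or M4 (adjusted p = 0.184, 0.225 and 0.144). Mean levels in CA3, CPU and GP did not pass the test against the other regions.

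**Figure D2:**
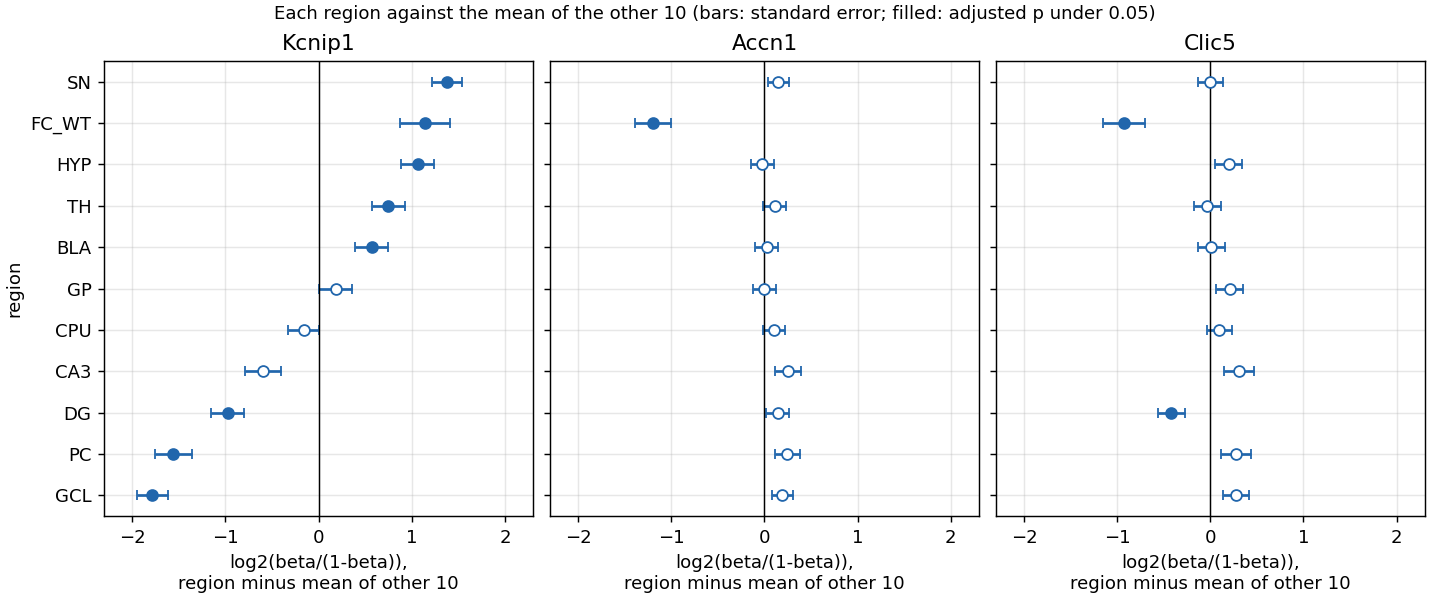
Difference of each region from the mean of the other 10 on the log2(beta / (1 - beta)) scale (x axis), by region (y axis), for the 3 genes; bars are standard errors and filled points passed an adjusted p under 0.05. Kcnip1 runs from -1.78 in GCL to 1.38 in SN, while at Accn1 the filled point is FC_WT (-1.20) and at Clic5 the filled points are FC_WT (-0.93) and DG (-0.42).

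Of the 55 pairs of regions, 35 differed at Kcnip1, where 14.9% of all pair tests over the array were called. From high to low the order was SN, FC_WT, HYP, TH, BLA, GP, CPU, CA3, DG, PC and GCL. None of the 10 pairs of neighbours in that order passed (limma adjusted p = 0.0836 or more); the lowest was for DG minus PC, a log2 difference of 0.53 with an unadjusted 95% interval of 0.02 to 1.04. Distant regions were clearly apart. SN exceeded GCL by 0.223 (log2 difference 2.88 ± 0.21, SE) and CPU by 0.148 (log2 difference 1.40), and FC_WT exceeded DG by 0.163 (log2 difference 1.93). Within the hippocampus and cerebellum, CA3 was higher than PC, at 0.0980 against 0.0595 (adjusted p = 0.0191), and DG was higher than GCL, at 0.0806 against 0.0494 (adjusted p = 0.0131), though samples of both pairs overlapped. CA3 minus DG had a 95% interval of -0.16 to 0.85 on the log2 scale, and PC minus GCL one of -0.28 to 0.69, neither of which passed.

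**Figure D3:**
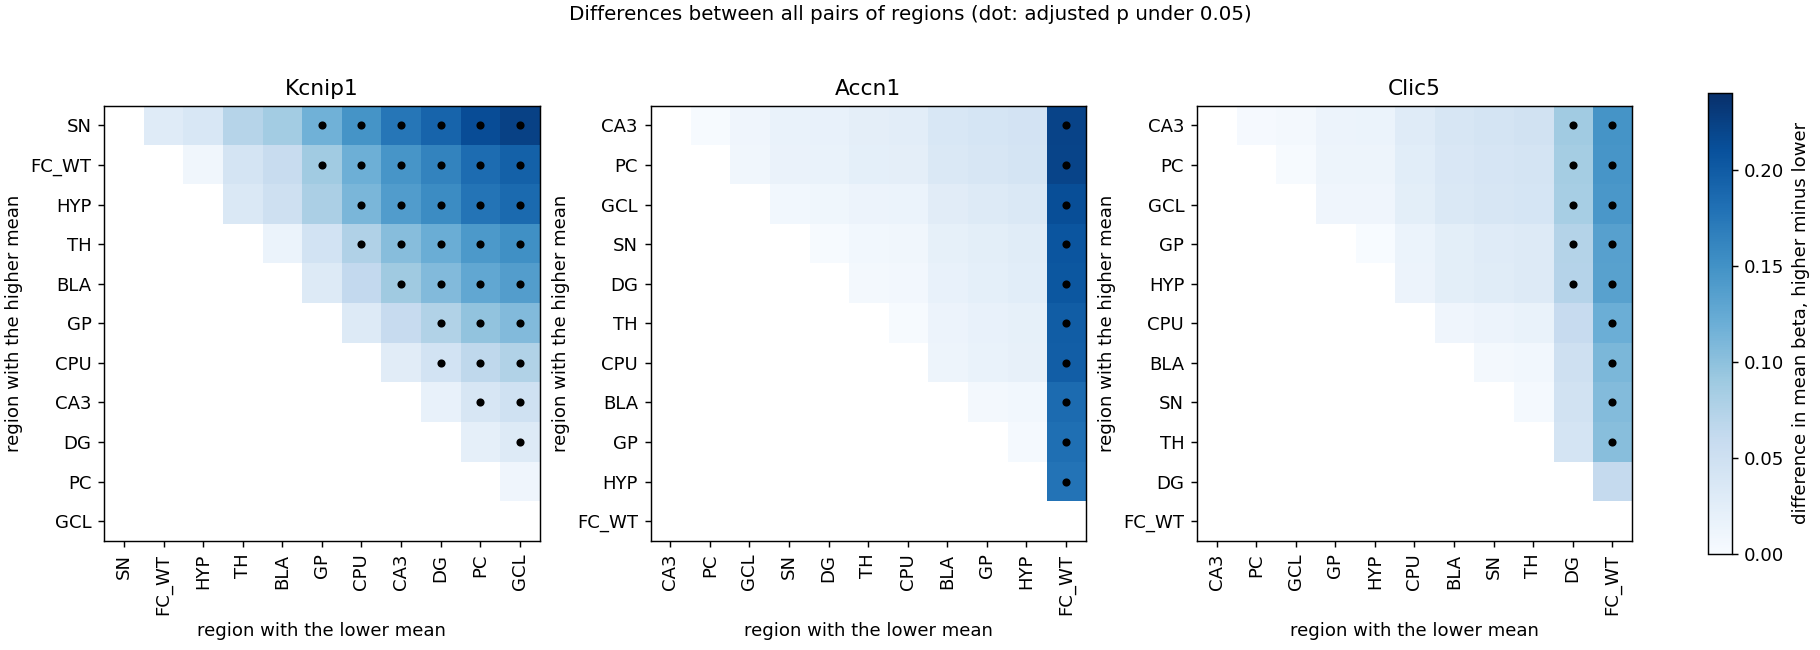
Difference in mean beta between every pair of regions, with the region of higher mean on the y axis and the region of lower mean on the x axis, both ordered from high to low for each gene; colour gives the difference and dots mark an adjusted p under 0.05. Dots fill the upper right of the Kcnip1 panel (35 pairs), form 1 column at Accn1 (FC_WT, 10 pairs) and 2 columns at Clic5 (FC_WT with 9 and DG with 5).

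At Accn1 the frontal cortex stood below every other region. The FC_WT samples were at 0.347 and 0.318, and the FC_3TG samples at 0.408, 0.341 and 0.355. The other 52 samples, CA1_3TG at 0.487 among them, ran from 0.431 in CPU F1 over a median of 0.536 to 0.622 in DG M2. All 5 frontal cortex samples thus lay below all other samples. The share of CpGs on the array that separate these samples in this way is not given here. FC_WT averaged 0.333 ± 0.0205 (SD, n = 2), against 0.533 for the mean of the other 10 regions, a log2 difference of -1.20 ± 0.19 (SE; limma adjusted p = 4.92e-06). In that comparison 27.5% of CpGs were called lower and the median over all CpGs was -0.19. FC_WT was lower in each of the 10 pairs it forms, from 0.222 below CA3 to 0.178 below HYP. The other 45 pairs gave 0 calls by limma, and the means of these regions lay between 0.511 in HYP and 0.555 in CA3. Without FC_WT the F-test of Accn1 had an adjusted p of 0.876, without FC_WT 3 alone, which leaves 1 sample in that group, it was 0.0860, and after centring of the arrays on their medians it was 0.0575; the difference of FC_WT from the other regions was called in all alternatives that kept it (adjusted p = 1.42e-06 to 0.00538).

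Outside the frontal cortex, samples of the same region lay far apart at Accn1. CPU F1 was at 0.431 and CPU F2 at 0.597, HYP F4 at 0.437 and HYP F2 at 0.580, and TH M4 at 0.462 and TH F2 at 0.598. The SD within regions was 0.0452 at Accn1, 0.0447 at Clic5 and 0.0278 at Kcnip1. CPU M4_a and M4_b, taken as repeat arrays from their codes, read 0.627 and 0.532 at Accn1, 0.256 and 0.376 at Clic5 and 0.160 and 0.154 at Kcnip1. These arrays thus differed at Accn1 and Clic5 by more than that SD, and little at Kcnip1. Their r over all CpGs was 0.987, within the 0.966 to 0.997 of other CPU pairs.

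Clic5 was low in the frontal cortex and in part of the dentate gyrus. The FC_WT samples were at 0.207 and 0.175, and DG samples F7, F8 and F9 at 0.192, 0.166 and 0.232. The remaining DG samples, F3 and M2, were at 0.372 and 0.296, so the dentate gyrus was divided. The 3TG samples were at 0.194, 0.183 and 0.206 in frontal cortex and 0.180 in CA1. All other 48 samples ran from 0.218 in BLA M1 over a median of 0.311 to 0.401 in HYP F4, and BLA M1 alone fell below DG F9. FC_WT averaged 0.191 ± 0.0224 (SD, n = 2), against 0.311 in the other regions, a log2 difference of -0.93 ± 0.22 (SE; limma adjusted p = 0.00135), and DG averaged 0.252 ± 0.0834 (SD, n = 5), against 0.305 (log2 difference -0.42 ± 0.15, SE; adjusted p = 0.0296). Lower calls made up 27.5% of CpGs in FC_WT and 16.2% in DG. FC_WT was lower in 9 of its 10 pairs and DG was lower in a further 5, below CA3, PC, GCL, GP and HYP. The other 9 regions lay between 0.294 in TH and 0.339 in CA3 with 0 calls among them. The call of FC_WT was lost without FC_WT 3 (log2 difference -0.78, adjusted p = 0.0795), which leaves 1 FC_WT sample that is assumed to vary like the other groups, as was that of the F-test (adjusted p = 0.0564), and 7 pairs then passed, with 9 without DG F8. The call of Clic5 DG minus others was lost without F7, F8 or F9 (adjusted p = 0.178, 0.341 and 0.103), with quantile normalization (adjusted p = 0.0590) and on untransformed beta (adjusted p = 0.0568), and without all 3 the log2 difference was 0.21.

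FC_WT and DG F7 to F9 share titles that start with WT, a form the other C57BL/6 samples do not carry, so levels within dentate gyrus and within this title form were compared, choices made after the values were seen. Within dentate gyrus, DG F7 to F9 averaged 0.197 ± 0.0335 (SD, n = 3) at Clic5, against 0.334 ± 0.0540 (SD, n = 2) in F3 and M2, a log2 difference of -1.04 ± 0.24 (SE; limma adjusted p = 0.00231). The same comparison called 22.8% of the array, and without DG F3 the adjusted p at Clic5 was 0.0722. At Accn1 these averaged 0.527 against 0.550 and at Kcnip1 0.0737 against 0.0910, with log2 differences of -0.13 ± 0.24 and -0.33 ± 0.34 (SE), neither called. Within the title form, FC_WT minus DG F7 to F9 was -0.05 ± 0.24 (SE) on the log2 scale at Clic5, at 0.191 against 0.197, and did not pass. It was -1.16 at Accn1, at 0.333 against 0.527 (adjusted p = 0.000646), and 2.06 at Kcnip1, at 0.244 against 0.0737 (adjusted p = 1.46e-05), in a comparison that called 9.16% of CpGs. For FC_WT against the regions without that form, region and title form cannot be told apart. Without FC_WT and DG F7 to F9, Clic5 had an adjusted p of 0.570 and Accn1 of 0.846 in the F-test.

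**Figure D4:**
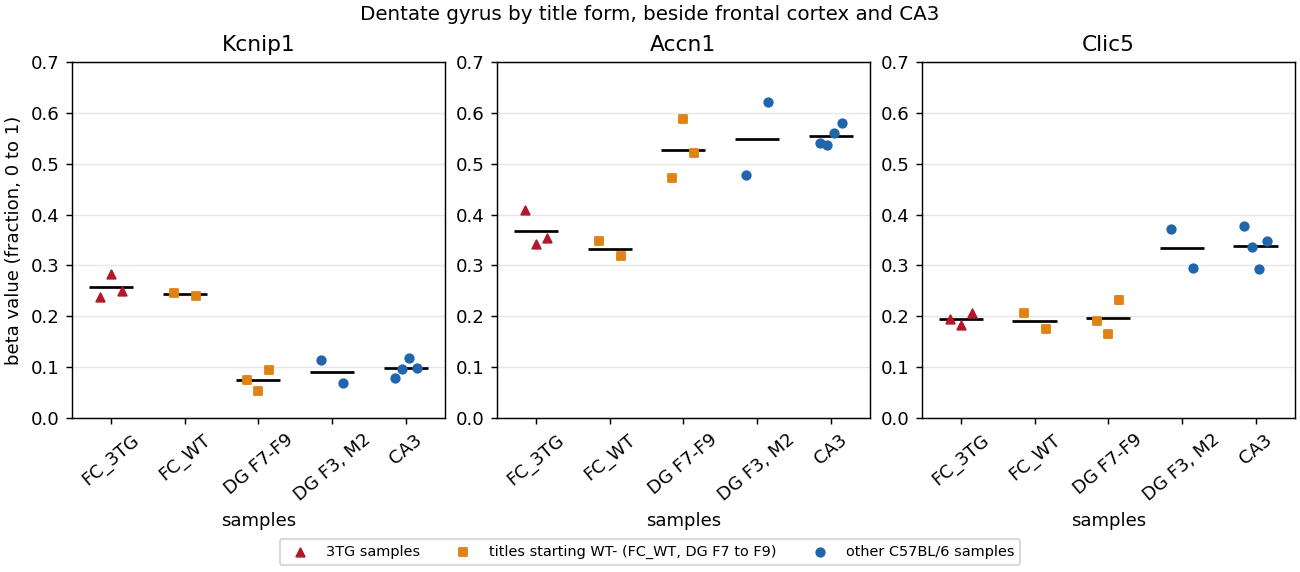
Beta value (fraction, y axis) of each sample at the 3 genes in FC_3TG, FC_WT, DG F7 to F9, DG F3 and M2, and CA3 (x axis); black bars are means, triangles 3TG samples, and squares samples whose titles start with WT. DG F7 to F9 lie with frontal cortex at Clic5 (0.197 on average) and with the other DG samples at Accn1 (0.527) and Kcnip1 (0.0737).

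No difference between 3TG and wild-type frontal cortex passed the test at any of the 3 CpGs. FC_3TG averaged 0.257 ± 0.0237 (SD, n = 3) at Kcnip1, against 0.244 ± 0.00404 in FC_WT (SD, n = 2), a log2 difference of 0.10 with a 95% interval of -0.57 to 0.78. Accn1 averaged 0.368 ± 0.0354 in FC_3TG, against 0.333 ± 0.0205 in FC_WT, a log2 difference of 0.22 with an interval of -0.26 to 0.70. Clic5 averaged 0.194 ± 0.0114 in FC_3TG, against 0.191 ± 0.0224 in FC_WT, a log2 difference of 0.03 with an interval of -0.52 to 0.59. The limma adjusted p was 0.999 for each, and 1.31% of CpGs were called in this comparison. These intervals leave room for differences of more than 0.5 on the log2 scale at each gene. Samples of the groups overlapped at all 3 genes; at Kcnip1 2 of the 3 FC_3TG samples (0.284 and 0.249) lay above both FC_WT samples and 1 (0.239) below both.

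Set against the 10 regions other than frontal cortex, with which FC_WT was compared too, FC_3TG was higher at Kcnip1 and lower at Accn1 and Clic5. The log2 differences were 1.24 ± 0.22 (0.257 against 0.147), -0.98 ± 0.16 (0.368 against 0.533) and -0.89 ± 0.18 (0.194 against 0.311; SE), with limma adjusted p of 1.94e-05, 2.81e-06 and 0.000183, where 31.2% of CpGs were called. This comparison was added after the values were seen, and genotype, background and region differ together in it. CA1_3TG, the only other 3TG sample, was at 0.131 at Kcnip1, between the means of CPU (0.125) and GP (0.156), at 0.487 at Accn1, within the range of the samples outside frontal cortex, and at 0.180 at Clic5, below the lowest of the 48 samples above. With 1 sample no test of CA1 was made.

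Replicate codes carry the letter F or M, whose meaning the labels do not give. Over the 51 samples of 10 regions, with region as a covariate, F-coded minus M-coded samples differed by -0.10 at Kcnip1, -0.09 at Accn1 and -0.03 at Clic5 on the log2 scale. The region means averaged 0.143 in F against 0.149 in M at Kcnip1, 0.528 against 0.548 at Accn1 and 0.310 against 0.319 at Clic5. None passed (limma adjusted p = 0.991 for each; 3.93% of CpGs were called), with 95% intervals of -0.32 to 0.12, -0.24 to 0.07 and -0.22 to 0.15. F was higher in 3 of 10 regions at Kcnip1, 3 at Accn1 and 6 at Clic5, and an interaction of letter and region was not called (adjusted p = 0.861, 0.768 and 0.768; 0% of CpGs called).

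FC_WT was low at Accn1 and Clic5 and high at Kcnip1. Over the 11 region means Accn1 and Clic5 correlated at r = 0.823, and at 0.200 over the 10 regions without FC_WT. Kcnip1 correlated with Accn1 at -0.493 and with Clic5 at -0.414, and at -0.595 and -0.204 without FC_WT. Deviations of the 53 samples from their region means correlated at -0.232 between Accn1 and Clic5, -0.219 between Kcnip1 and Accn1 and 0.240 between Kcnip1 and Clic5, where the median over all pairs of CpGs on these shared arrays was 0.116. Within regions, samples high at Kcnip1 or Clic5 tended to be high in the array's median beta (r = 0.490 and 0.522, n = 53). With that median Accn1 had r = -0.128. Samples high at Accn1 tended to be high in the array's upper quartile (r = 0.495), with which r was 0.255 for Kcnip1 and -0.261 for Clic5. With the lower quartile r was 0.390 for Kcnip1, -0.230 for Accn1 and 0.500 for Clic5. The part of such array-wide shifts in the results was not tested.

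The CpGs whose region means were most like those of Kcnip1 were Lhb, the beta chain of luteinizing hormone (r = 0.926, n = 11), Ednrb, an endothelin receptor gene (r = 0.859), and Gabra6, a GABA-A receptor subunit gene of cerebellar granule cells (r = 0.858). Ednrb ran from 0.0696 in GCL to 0.256 in SN and was out of step in FC_WT, at 0.130; without FC_WT its correlation with Kcnip1 was 0.987 (n = 10). Gabra6 was at 0.237 in GCL, 0.278 in PC and 0.580 in SN. The deviations of samples within regions also ran together with Kcnip1, at r = 0.593 for Lhb, 0.511 for Ednrb and 0.432 for Gabra6 (n = 53). The median over all pairs of CpGs was 0.116. Tacr3, a tachykinin receptor gene, was the most opposite (r = -0.828). For Accn1 the most like were Adra1b (r = 0.95), Drd5 (r = 0.948) and Crhr1 (r = 0.905), receptor genes for noradrenaline, dopamine and corticotropin-releasing hormone, but without FC_WT these were -0.453, 0.269 and -0.532. Grin2d, an NMDA receptor subunit gene, was the most opposite to Accn1 (r = -0.817). For Clic5 they were Yme1l1 (r = 0.946), a mitochondrial protease gene, Chrm2 (r = 0.940), a muscarinic receptor gene, and Gal3st1 (r = 0.933), a sulfotransferase gene of myelin lipids, with 0.828, 0.814 and 0.842 without FC_WT, and Gabre was the most opposite (r = -0.936). Gabre, a GABA-A receptor subunit gene, did not pass the F-test (adjusted p = 0.535). Chrm2 was also lower in FC_WT (0.530) and DG (0.655) than in the remaining regions, which were at 0.749 or more. Sample deviations within regions correlated with Accn1 at 0.642 for Adra1b, -0.131 for Drd5 and 0.506 for Crhr1. With Clic5 these were 0.634 for Yme1l1, 0.609 for Chrm2 and 0.438 for Gal3st1. The most opposite CpGs were not opposite to that degree within regions. Their r there was -0.128 for Gabre with Clic5, 0.310 for Grin2d with Accn1 and 0.00627 for Tacr3 with Kcnip1.

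**Figure D5:**
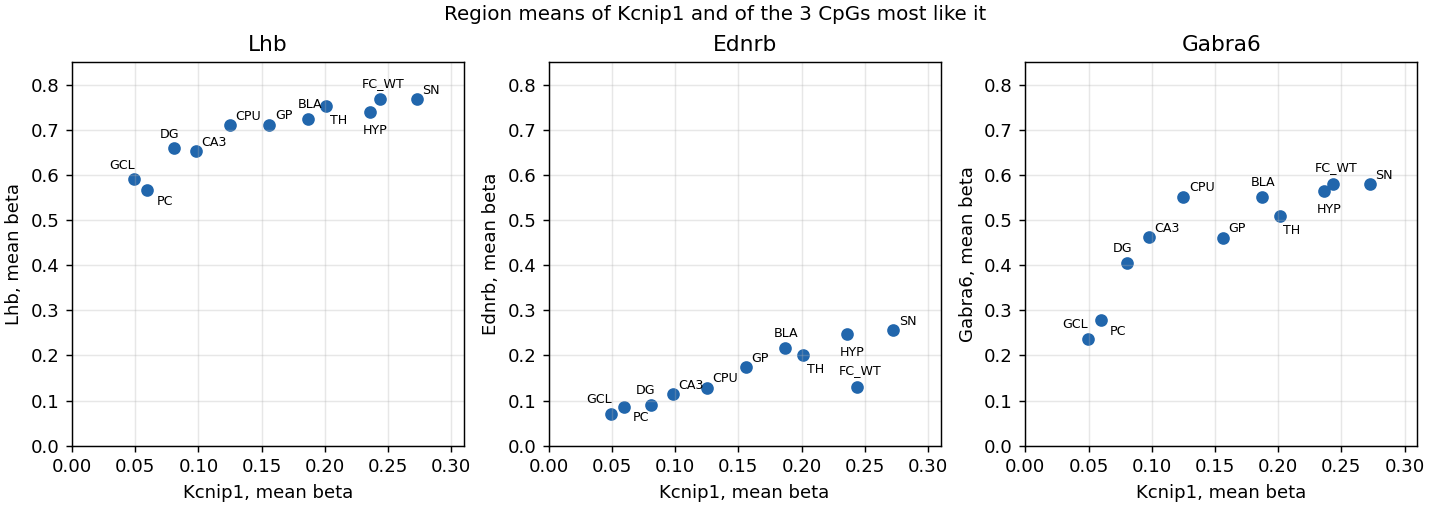
Mean beta of each of the 11 regions at Kcnip1 (x axis) and at the 3 CpGs most like it (y axis); each point is a region mean. All 3 climb with Kcnip1 (r = 0.926 for Lhb, 0.859 for Ednrb and 0.858 for Gabra6), and Ednrb lies low in FC_WT, at 0.130.

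Other channel genes gave context for these levels. A list of channel families by gene name held 11 CpGs besides the 3 members, of which 7 differed between regions (63.6%, against 44.5% of the array), with a median span of 0.0941 against 0.0496. Kcnd2, which encodes a Kv4 channel subunit that KChIP proteins bind, ran from 0.0770 in FC_WT to 0.171 in BLA (limma adjusted p = 9.97e-07). Kcnab2, a potassium channel beta subunit gene, was not called, and its region means ran from 0.0363 to 0.0564. Cacna1d, an L-type calcium channel gene, spanned 0.320 in GCL to 0.806 in TH. Among the ATP-gated P2X channel genes, P2rx1 ran from 0.553 in PC to 0.811 in DG, P2rx6 from 0.0990 in GCL to 0.266 in HYP and P2rx4 from 0.170 in FC_WT to 0.311 in SN. Trpv1, the heat and capsaicin channel gene, ran from 0.509 in FC_WT to 0.691 in GP (limma F-test adjusted p = 0.0350). That call was lost without FC_WT 1_a, FC_WT 3, GP F4 or GP F1. Only 9 of 15 alternatives kept it, and the F-test adjusted p rose to 0.758 among them. Centring the arrays on their median was 1 of those that lost it. In the 3TG comparison 0 of the 14 channel CpGs, the 3 members among them, were called by limma. As 1.31% of the array were called there, this count says little about channel genes. Their median log2 difference was 0.11, against -0.01 over the array.

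Methylation at marker genes of brain cell types was set beside these levels as a description. Of the lists, 2 of 6 astrocyte, 7 of 11 oligodendrocyte, 2 of 7 neuronal and 0 of 4 microglial genes were on the array. The astrocyte gene Gfap followed Kcnip1 over regions (r = 0.839, n = 11) and Slc1a3, the other astrocyte gene, did not (r = -0.204), while with Accn1 and Clic5 r was 0.783 and 0.833 for Slc1a3 and -0.326 and -0.204 for Gfap. Of the oligodendrocyte genes, r with Kcnip1 ran from -0.616 for Mbp to 0.704 for Gm98, and the mean of the list lay between 0.231 in GCL and 0.260 in TH. Gal3st1 had r = 0.933 with Clic5. The neuronal genes Gap43 and Reln had r of -0.0959 and 0.403 with Kcnip1, and their mean ran from 0.209 in FC_WT to 0.274 in PC. Tbxa2r, the only endothelial list gene on the array, had r = 0.702 with Kcnip1. The part of cell type mix in the levels of the 3 genes was not tested.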

How the data were processed

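Per the labels, DNA from brain samples was treated with bisulphite and read on a custom GoldenGate array. All fits start from the beta value that the authors deposited, a fraction between 0 and 1, for 382 CpGs on 58 arrays. Its background correction, normalization and filters, and the genome build, are not stated by the labels, and signal over background per value was not used here; the number of arrays limits the precision. Accn1 was matched to Asic2 as a RefSeq synonym, Kcnip1 and Clic5 by symbol, and promoter windows came from RefSeq (GRCm38.p6).

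Samples were grouped by tissue and genotype labels. CPU M4_a and M4_b (r = 0.987, other CPU pairs 0.966 to 0.997) were taken as repeats from their codes and averaged as 1 sample, which left 57. Of 1653 array pairs 0 were identical. Fits used limma 3.58.1 in R 4.3.3 over all CpGs, with beta values kept within 0.01 and 0.99 before the log2(beta / (1 - beta)) step, and Benjamini-Hochberg adjustment over 382 CpGs at 0.05. The region fit took 53 samples of 11 regions and the 3TG comparison all 13 groups; scripts were tested on simulated arrays. Tables and plots were made in Python 3.11.15 (numpy 2.4.6, pandas 2.3.3, matplotlib 3.10.9).

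Named genes were the 3 members, for each the 3 CpGs of highest and the 1 of lowest correlation over region means, and up to 6 called channel genes of widest span; Kcnab2 was added after its values were seen, and marker genes came from cell type lists. Some genes of the lists are not reported here. Members and lists were chosen with earlier results of these data known. Replicate codes such as F1 recur across regions. Of 149 pairs of samples with the same code in different regions, 116 had deviations from their group means that correlated over 0.1. Their median r was 0.332 and the lowest -0.549. For other codes of the same letter the median was 0.264, with 304 of 437 pairs over 0.1. For codes of different letters it was -0.267, with 77 of 582 over 0.1. These deviations were taken from group means and still differ with the letter, so they cannot separate a shared animal from a shared letter. As the labels do not tie codes to animals, the codes were not taken to pair samples, and a pairing remains possible.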

Additional observations from a re-analysis of the deposited data

Results flagged for a closer look

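At Kcnip1 the GCL sample M3 was at 0.0717, above the other 5 GCL samples, which lay between 0.0394 and 0.0494, and its gap to them was wide for the spread of that group. It was the 1 sample picked out among 30 sets of a gene and a group of 4 to 6 samples, and chance picks out about 1 in 20. It is 1 of the 2 GCL samples whose titles are written with a dot, and the other, F1, was at 0.0494, with the rest of the group. Over the samples left out in turn, GCL M3 among them, the log2 difference of GCL from the other regions at Kcnip1 stayed between -1.90 and -1.72.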

How the results depend on the processing

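The F-test of Kcnip1 kept its call under all 15 alternatives and without each of 53 samples (adjusted p = 2.63e-18 to 1.89e-13). A fixed effect for each code (replicate block), which leaves out FC_WT and DG F7 to F9, called 23 pairs and 5 regions at Kcnip1. DG minus the other regions was 0.12 there. DG kept F3 and M2, and code M2 occurs in no other region and F3 elsewhere only in CA3. The DG value of that fit is thus set by DG F3 against CA3 F3, and does not show what adjusting for code does to DG. In that fit the F-test had an adjusted p of 0.610 at Accn1 and 0.684 at Clic5, 0 pairs and 0 regions were called at both, and Clic5 DG minus others was 0.0897. For Accn1 the F-test gave 0.0575 with arrays centred on their median, 0.838 with the code letter as a covariate and no FC_WT, 0.876 without FC_WT, 0.816 without FC_WT, DG F7 to F9, GCL F1 and GCL M3, and 0.846 without FC_WT and DG F7 to F9 (chosen after seeing the data), with 0 pairs and 0 regions called in the last 4; quantile normalization gave 18 pairs and 3 regions. For Clic5 the same 4 settings gave 0.137, 0.128, 0.655 and 0.570, with 5 pairs and 1 region in the first pair of settings and 0 of each in the other, where DG was at 0.11 in both; 1 region was called on untransformed beta and without DG F7 to F9, where DG was at 0.21. Leaving out 1 sample in turn gave adjusted p of 0.000248 to 0.0860 at Accn1 and 0.00014 to 0.0564 at Clic5, with 7 to 18 pairs and 1 to 2 regions at Clic5. The cause of these changes was not tested, beyond the samples that each setting leaves out. The comparisons of 3TG with wild type and of F with M codes had no call at any of the 3 genes under the alternatives run, though quantile normalization put F minus M at 0.05, 0.15 and 0.18; with the code as a random block (correlation 5.45e-05) F minus M was -0.10, -0.09 and -0.03. Signal over background was not used here, so its limit on single values is not known.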
